A study of Homo sapiens with 9 samples.

Results

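YAP1, its paralogue WWTR1 (the gene of the protein TAZ), the TEAD transcription factors TEAD1, TEAD2, TEAD3 and TEAD4, and the target genes CCN1, CCN2, AMOTL2 and LATS2 were taken by gene symbol from a table of 25084 genes. Of these 10 genes, 7 had a row: WWTR1, TEAD1, TEAD2, TEAD3, TEAD4, CCN1 and AMOTL2. YAP1, CCN2 and LATS2, looked for under current and older symbols, were not analysed here. A further row under the symbol TAZ belongs to tafazzin, a mitochondrial gene that once shared that name, and was not used. The values are CPM, a gene's reads scaled to a fixed total of reads per library, so that libraries of different depth can be compared. All libraries came from LAN5, an established human neuroblastoma line with amplified MYCN, grown in RPMI-1640 with fetal calf serum and harvested 72 h after nucleofection (electroporation) of an siRNA. The 3 groups of 3 libraries had received an siRNA that served as control (siCTR), 1 directed at MYCN (labelled siMYCN_2) or 1 directed at HAND2 (labelled siHAND2_3). MYCN and HAND2 are transcription factors of the helix-loop-helix class, and the series asks which genes each of them regulates. Each target was lowered with a single labelled siRNA, so effects of the target and other effects of that siRNA cannot be told apart. The labels do not say whether the 3 libraries of a group came from separate cultures, so the p-values measure the spread between these libraries, which may be technical.

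In the Hippo pathway the kinases MST1 and MST2 (genes STK4 and STK3) activate LATS1 and LATS2, which phosphorylate YAP and TAZ and keep them out of the nucleus. Where this brake is off, YAP and TAZ enter the nucleus and bind DNA through TEAD factors, which recognise the short element GGAATG. Genes switched on in this way include the secreted matricellular proteins CCN1 and CCN2 and the negative regulators AMOTL2 and LATS2, which feed back on the pathway. In neuroblastoma, YAP and TAZ activity is usually linked with the mesenchymal cell state, and the noradrenergic state of lines with amplified MYCN is usually low in it. RNA levels do not show where YAP or TAZ protein is located or whether it is phosphorylated.

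The libraries held 21.1 M to 32.7 M assigned reads, read from the smallest step between low CPM values. The siRNAs went with lower levels of their targets: MYCN in siMYCN was 70.0% and HAND2 in siHAND2 54.2% of the siCTR mean. MYCN was also lower in siHAND2, at 49.6% of the siCTR mean, so both knockdowns share a lower MYCN level. HAND2 in siMYCN was 114% of the siCTR mean, and MYCN in siHAND2 was 70.9% of its siMYCN mean. The 2 knockdown groups therefore differ in both factors. All 8 noradrenergic markers examined had a row, and 7 were at or above 1 CPM in every library. They moved with the groups: 7 of 8 were called higher in siMYCN and none lower, and in siHAND2 4 were called lower (among them DBH, at 49.4%, and TH, at 48.6% of the siCTR mean) and 1 higher. Their summed level was 2070 to 2210 CPM in siCTR, 2630 to 2710 CPM in siMYCN and 2120 to 2220 CPM in siHAND2. Of all 14495 genes tested, 24.5% were called higher and 11.4% lower in siMYCN, and 18.1% and 11.8% in siHAND2. The surplus of rises among all calls depended on how libraries were scaled, as given below. Leukocyte PTPRC and the endothelial genes PECAM1 and CDH5 were below 0.1 CPM in every library. Their lists as a whole were low but detected: in siCTR 5 endothelial markers summed to 0.887 to 1.87 CPM and 4 leukocyte markers to 0.539 to 0.886 CPM. The 5 Schwann cell markers summed to 2.06 to 2.84 CPM in siCTR, 3.08 to 3.34 CPM in siMYCN and 2.5 to 2.59 CPM in siHAND2. In siCTR 3 epithelial markers summed to 3.08 to 3.22 CPM, and EPCAM among them read 2.79 to 3.95 CPM over the 9 libraries. The summed level of 6 fibroblast markers was 277 to 282 CPM in siCTR, 325 to 329 CPM in siMYCN and 556 to 628 CPM in siHAND2. Of the 5 fibroblast markers tested, DCN, COL3A1, PDGFRA and THY1 were called higher in siMYCN. In siHAND2 DCN, COL3A1, PDGFRA and PDGFRB were called higher and THY1 lower. DCN reached the 1 CPM that testing asked for only in knockdown libraries, where it is high. Its siCTR libraries read 0.398, 0.374 and 0.522 CPM, so the DCN calls are a description. COL1A1, not tested, averaged 0.720 CPM in siCTR, 0.507 CPM in siMYCN and 0.363 CPM in siHAND2. The part of these marker lists in the results below was not tested.

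TAZ transcript was barely detectable. WWTR1 (chromosome 3, 149517235 to 149736714, minus strand) read 0.0918, 0.113 and 0.143 CPM under siCTR, 0.162, 0.0770 and 0.104 CPM under siMYCN and 0.132, 0.0798 and 0.178 CPM under siHAND2. These values correspond to between 2 and 5 reads in each library. The 3 groups overlapped, and none of the values reached the 1 CPM that the filter for testing asked for in at least 3 libraries. The differences of the means were -0.00148 CPM for siMYCN and 0.0145 CPM for siHAND2, each against siCTR (two-sided exact permutation p = 1 and 0.7, where 3 against 3 libraries allow no p below 0.1). When all 25084 genes were tested without the filter, 95% intervals of the difference in log2(CPM + 1) were taken. They ran from -0.13 to 0.12 in siMYCN and from -0.11 to 0.14 in siHAND2. At this level the added 1 CPM flattens changes, so these intervals are not narrow bounds on the fold of WWTR1. A change of WWTR1 was therefore not detectable at this depth.

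**Figure D1:**
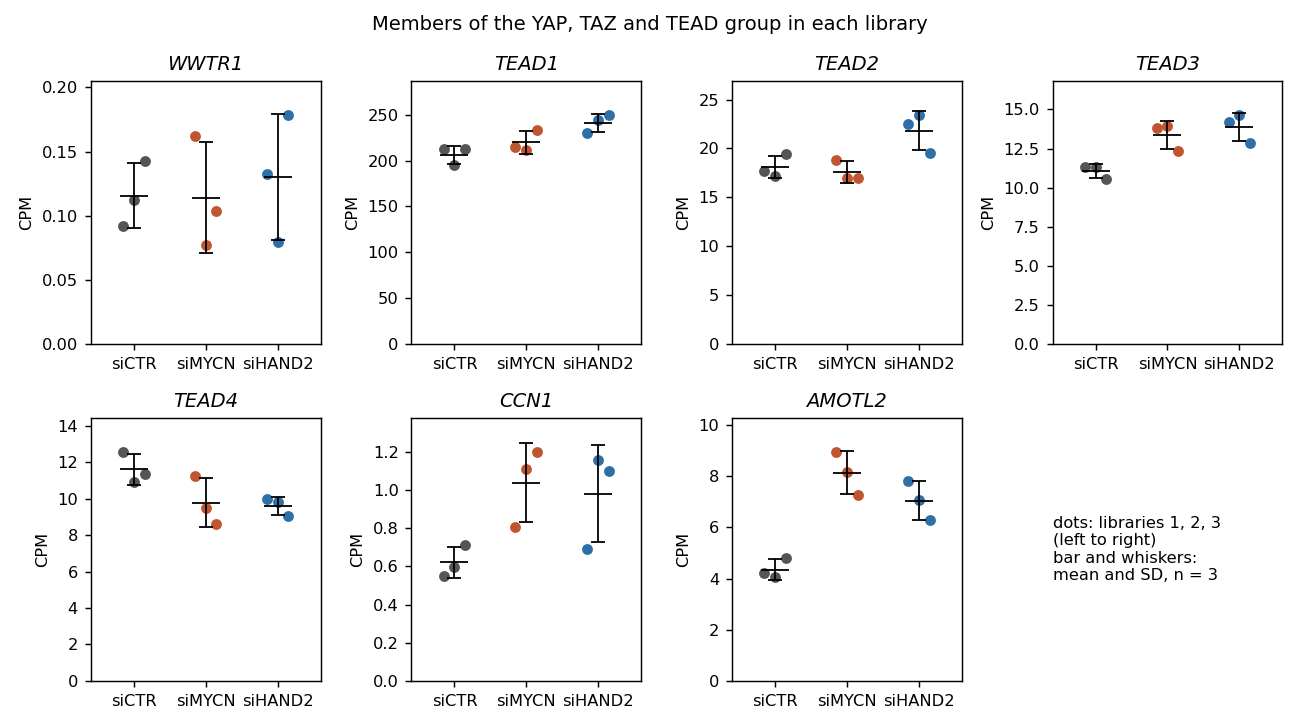
CPM of the 7 genes in each of the 9 libraries, 1 panel per gene with an axis from 0; dots are libraries, the bar and whiskers are the mean and SD of 3. AMOTL2 and TEAD3 lie higher in every knockdown library than in any siCTR library, while the 3 groups overlap for WWTR1.

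The TEAD factors, which carry YAP and TAZ to DNA, were all expressed. These are bulk RNA levels, in which fewer cells of a type and less RNA per cell cannot be told apart. TEAD1 (chromosome 11, 12674421 to 12944737, plus strand) read 212, 195 and 212 CPM under siCTR, 214, 211 and 234 CPM under siMYCN and 229.5, 244 and 249 CPM under siHAND2. All 3 siHAND2 libraries lay above all siCTR libraries, whereas siMYCN overlapped siCTR. TEAD2 (chromosome 19, 49340595 to 49362457, minus strand), known for its expression in neural precursors, read 17.7, 17.2 and 19.4 CPM under siCTR, 18.9, 17.0 and 17.0 CPM under siMYCN and 22.5, 23.4 and 19.6 CPM under siHAND2. For TEAD2 the siHAND2 libraries were again the high ones, the lowest of them just above the highest siCTR library.

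TEAD3 (chromosome 6, 35473597 to 35497079, minus strand) read 11.3, 11.3 and 10.5 CPM under siCTR, 13.8, 13.9 and 12.4 CPM under siMYCN and 14.2, 14.6 and 12.9 CPM under siHAND2. Every library of either knockdown exceeded every siCTR library. TEAD4 (chromosome 12, 2959330 to 3040676, plus strand), a factor needed for the first lineage choice of the embryo, went the other way. It read 12.6, 10.9 and 11.3 CPM under siCTR, 11.2, 9.51 and 8.60 CPM under siMYCN and 9.998, 9.80 and 9.03 CPM under siHAND2. The siHAND2 libraries lay below all siCTR libraries, and siMYCN replicate 1 fell inside the siCTR range.

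The 14495 genes that passed the filter were fitted with 1 linear model (limma on log2(CPM + 1), Benjamini-Hochberg adjusted p-values, threshold 0.05). In siHAND2 3 of the 4 TEAD genes rose and 1 fell, where 18.1% of all genes tested were called higher and 11.8% lower. TEAD1 rose by 0.22 on the log2 scale (standard error 0.05, limma adjusted p = 0.00308), to a mean of 240.9 ± 10.2 CPM from 206 ± 9.92 CPM (SD, n = 3 libraries). TEAD2 rose by 0.25 (standard error 0.08, limma adjusted p = 0.0179), from 18.1 ± 1.14 to 21.8 ± 2.01 CPM. TEAD3 rose by 0.30 (standard error 0.07, limma adjusted p = 0.00563), from 11.1 ± 0.458 to 13.9 ± 0.913 CPM. TEAD4 fell by 0.25 (standard error 0.09, limma adjusted p = 0.0487), from 11.6 ± 0.849 to 9.61 ± 0.508 CPM. The TEAD2 call was lost after quantile normalization (0.21), and also without siCTR replicate 1 (0.24) or 2 (0.22) or siHAND2 replicate 1 (0.23) or 2 (0.20). The TEAD4 call was lost in 7 of the 9 fits without 1 library, where its value ranged from -0.29 (without siCTR replicate 2) to -0.19 (without siCTR replicate 1); leaving out siMYCN replicate 1 or 3 kept it. It was also lost without the filter and without the intensity trend, where the value stayed at -0.25.

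In siMYCN, where 35.9% of all genes tested were called, TEAD3 alone of the 4 passed the threshold, rising by 0.25 (standard error 0.07, limma adjusted p = 0.0146) to 13.4 ± 0.865 CPM. That call was lost after median-ratio rescaling (0.20, limma adjusted p = 0.0601) and quantile normalization (0.17), and without siCTR replicate 3 (0.22), siMYCN replicate 1 (0.23) or siMYCN replicate 2 (0.22). TEAD4 differed by -0.23 (95% interval -0.42 to -0.04, limma adjusted p = 0.057), short of the threshold. It passed after both rescalings (-0.28 and -0.31), with precision weights (-0.27) and with a filter of 5 CPM (-0.23). It also passed without siMYCN replicate 1 (-0.33) or siHAND2 replicate 3 (-0.23). With the replicate number as a block, for which the labels give no batch, TEAD4 passed too (-0.23, limma adjusted p = 0.0229). TEAD1 differed by 0.09 (95% interval -0.02 to 0.20, limma adjusted p = 0.18) and TEAD2 by -0.04 (95% interval -0.20 to 0.12, limma adjusted p = 0.721). Changes of TEAD1 or TEAD2 up to those bounds are compatible with the siMYCN libraries.

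The direct comparison of siHAND2 with siMYCN separated the knockdowns for TEAD2, which was higher in siHAND2 by 0.29 (95% interval 0.13 to 0.45, limma adjusted p = 0.00803) with no overlap of the libraries. TEAD1 was 0.13 higher in siHAND2 (95% interval 0.03 to 0.24, limma adjusted p = 0.0595). Its difference passed the threshold after median-ratio rescaling (0.15), quantile normalization (0.16), and without siMYCN replicate 3 (0.18) or siHAND2 replicate 1 (0.17). The replicate number as a block also put TEAD1 past the threshold (0.13, limma adjusted p = 0.0179). TEAD3 (0.05, 95% interval -0.11 to 0.21) and TEAD4 (-0.02, 95% interval -0.21 to 0.18) were not separated.

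Levels of different genes can be compared only per transcript length, and for this each CPM was divided by the length in kb of the canonical GENCODE transcript (9.42 kb for TEAD1, 2.17 kb for TEAD2, 2.99 kb for TEAD3 and 1.71 kb for TEAD4). In siCTR the order was TEAD1 at 21.9 ± 1.05, TEAD2 at 8.33 ± 0.526, TEAD4 at 6.79 ± 0.497 and TEAD3 at 3.71 ± 0.153 CPM per kb (SD, n = 3 libraries). AMOTL2 followed at 0.894 ± 0.0805, CCN1 at 0.272 ± 0.0364 and WWTR1 at 0.0230 ± 0.00506 CPM per kb. In siCTR no range touched that of its neighbour in this order. In siMYCN and siHAND2 the order of the means was kept, and the distance between TEAD4 and TEAD3 was smaller: 5.72 ± 0.783 against 4.48 ± 0.29 CPM per kb in siMYCN, and 5.62 ± 0.297 against 4.65 ± 0.306 CPM per kb in siHAND2. The order depends on which transcript the cells use, which the table does not show.

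**Figure D2:**
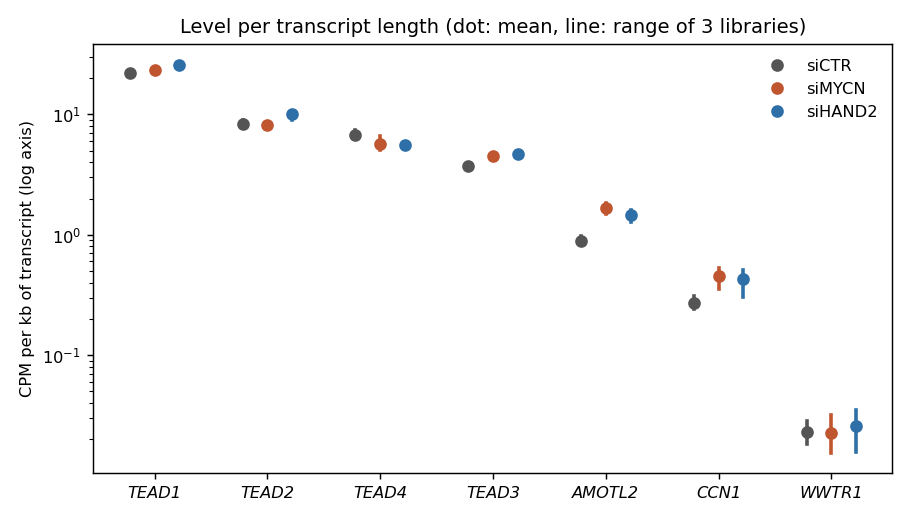
Level of each of the 7 genes in CPM per kb of canonical transcript on a log axis, by group; dots are means and lines the range of 3 libraries. The 4 TEAD genes lie above AMOTL2 and CCN1, and WWTR1 lies lowest at about 0.023 CPM per kb in siCTR.

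TEAD1 made up 53.3% to 54.1% of the summed TEAD level per kb in siCTR, 53.4% to 59.4% in siMYCN and 53.8% to 58.7% in siHAND2. The share of TEAD4 was 15.9% to 17.6% in siCTR, 12.0% to 15.4% in siMYCN and 11.7% to 12.9% in siHAND2, so it was smaller in each knockdown library than in any siCTR library. Set against TEAD3 within each library, TEAD4 measured 0.964 to 1.11 times the CPM of TEAD3 in siCTR, 0.683 to 0.813 times in siMYCN and 0.67 to 0.705 times in siHAND2. This ratio was chosen after the values were seen and does not depend on how libraries are scaled to each other; it is given without a test.

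AMOTL2, a scaffold of the angiomotin family that holds YAP and TAZ in the cytoplasm and is itself a target of them, changed most among the 6 genes tested. AMOTL2 (chromosome 3, 134355874 to 134375479, minus strand) read 4.22, 4.04 and 4.79 CPM under siCTR, 8.94, 8.17 and 7.26 CPM under siMYCN and 7.79, 7.05 and 6.27 CPM under siHAND2. The lowest knockdown library (6.27 CPM) exceeded the highest siCTR library (4.79 CPM). AMOTL2 averaged 4.35 ± 0.392, 8.12 ± 0.839 and 7.04 ± 0.762 CPM over the 3 libraries of siCTR, siMYCN and siHAND2 (± SD), which is 1.87-fold the siCTR mean in siMYCN and 1.62-fold in siHAND2. On the log2(CPM + 1) scale AMOTL2 rose by 0.77 in siMYCN (standard error 0.10, 95% interval 0.56 to 0.98, limma adjusted p = 1.94e-05). In siHAND2 it rose by 0.59 (standard error 0.10, 95% interval 0.38 to 0.80, limma adjusted p = 0.000297). Its value stood above that of 99.3% of all genes tested in siMYCN and of 97.6% in siHAND2. The knockdowns themselves differed by -0.18 (siHAND2 minus siMYCN, 95% interval -0.39 to 0.03, limma adjusted p = 0.188), so a difference between them was not shown. Both AMOTL2 calls held under the other scalings, pseudocounts, filters and variance models tried, and in every fit without 1 library.

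RefSeq lists 2 start sites for AMOTL2, and the 250 bases before each are printed because this gene rose in both knockdowns; the TEAD element GGAATG, searched on both strands (as GGAATG or CATTCC), is in capitals. They are taken from the GRCh38.p14 table of promoters, 5′ to 3′ on the strand of the gene. The promoter of TEAD3, the other gene called in both knockdowns, is set beside them.
AMOTL2, distal start, chr3:134375418-134375667, minus strand: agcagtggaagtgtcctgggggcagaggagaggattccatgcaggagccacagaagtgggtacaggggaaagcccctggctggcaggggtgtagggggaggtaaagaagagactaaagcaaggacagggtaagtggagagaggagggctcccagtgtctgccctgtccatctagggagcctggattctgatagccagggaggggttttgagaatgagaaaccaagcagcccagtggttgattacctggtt
AMOTL2, proximal start, chr3:134374448-134374697, minus strand: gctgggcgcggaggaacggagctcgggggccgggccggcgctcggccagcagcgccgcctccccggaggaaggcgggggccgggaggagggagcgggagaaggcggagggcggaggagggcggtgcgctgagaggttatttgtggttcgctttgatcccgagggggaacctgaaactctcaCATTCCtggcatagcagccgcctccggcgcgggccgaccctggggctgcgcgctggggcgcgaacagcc
TEAD3, chr6:35497080-35497329, minus strand: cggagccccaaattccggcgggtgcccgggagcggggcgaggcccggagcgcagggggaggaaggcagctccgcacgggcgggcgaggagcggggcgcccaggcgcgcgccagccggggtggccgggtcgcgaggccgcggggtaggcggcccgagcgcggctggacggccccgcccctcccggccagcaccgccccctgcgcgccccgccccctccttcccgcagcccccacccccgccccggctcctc
The element occurs once, in the proximal promoter of AMOTL2, where CATTCC begins 69 bases before the start, and not in the other 2 windows. Of the 35116 promoters in the table, 11.9% hold it in the same 250 bases. The E-box CACGTG, the preferred element of MYC proteins, is in none of these 3 windows and in 6.34% of all promoters. The wider E-box CANNTG, the class to which HAND2 dimers bind and which includes CACGTG, is also in none of the 3 and in 61.8% of all. The table of promoters held entries for 4 of the 7 genes (AMOTL2, TEAD2, TEAD3 and WWTR1). It had none for TEAD1, TEAD4 and CCN1, although RefSeq gives gene positions for all 7, so their promoters were not searched. A match is a run of letters and does not show that a factor binds there.

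CCN1, a secreted matricellular protein and one of the most used readouts of YAP and TAZ, was near 1 CPM. It (chromosome 1, 85580761 to 85583950, plus strand) read 0.550, 0.599 and 0.712 CPM under siCTR, 0.806, 1.11 and 1.20 CPM under siMYCN and 0.691, 1.16 and 1.098 CPM under siHAND2. These are 15 to 18 reads per siCTR library and 20 to 35 reads per knockdown library. The siMYCN libraries lay above all siCTR libraries, and siHAND2 replicate 1 fell inside the siCTR range. CCN1 passed the filter only through siMYCN replicates 2 and 3 and siHAND2 replicates 2 and 3, in the groups where it is high. Its differences, intervals and p-values are therefore a description, also where a setting passed the threshold. Its mean was 0.620 ± 0.0829 CPM in siCTR, 1.04 ± 0.207 CPM in siMYCN and 0.981 ± 0.253 CPM in siHAND2. The difference on the log2(CPM + 1) scale, which shrinks changes near 1 CPM, was 0.33 in siMYCN (95% interval 0.04 to 0.62, limma adjusted p = 0.0756). In siHAND2 it was 0.28 (95% interval -0.01 to 0.58, limma adjusted p = 0.135). Neither passed the threshold; without an intensity trend (0.33, limma adjusted p = 0.0366) and with precision weights (0.74, limma adjusted p = 0.0473) the siMYCN difference did. The 2 knockdowns differed by -0.04 (95% interval -0.34 to 0.25, limma adjusted p = 0.845).

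**Figure D3:**
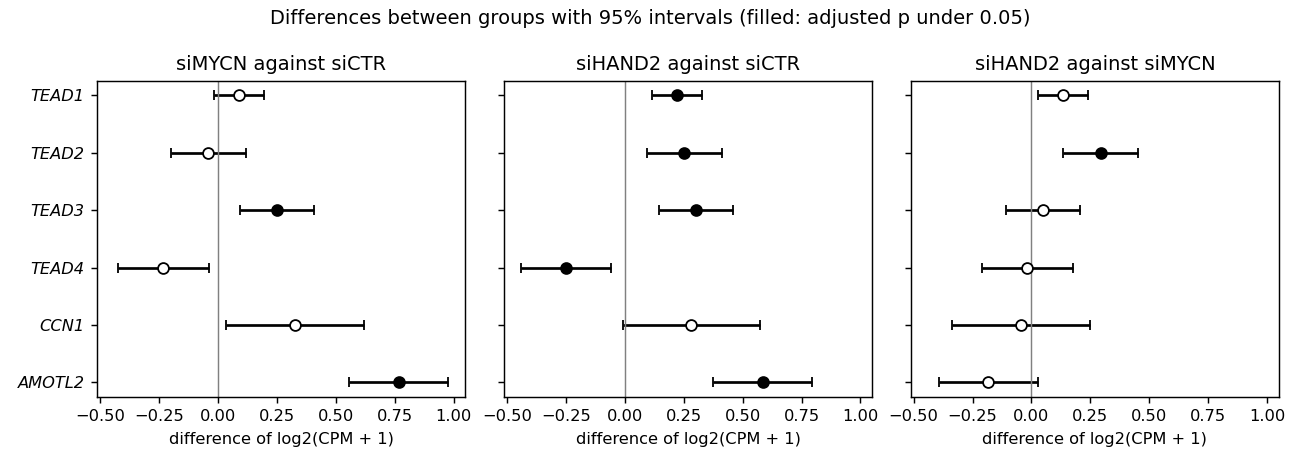
Differences of log2(CPM + 1) for the 6 tested genes in the 3 comparisons, with 95% intervals from limma; filled dots passed an adjusted p of 0.05. AMOTL2 lies farthest to the right in both comparisons with siCTR, and TEAD2 is the only filled dot in siHAND2 against siMYCN.

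In all, 2 of the 6 tested genes were called in siMYCN against siCTR (both higher, AMOTL2 and TEAD3), where 35.9% of all 14495 genes were called, 24.5% higher and 11.4% lower. In siHAND2 against siCTR 5 of 6 were called, 4 higher (AMOTL2, TEAD1, TEAD2 and TEAD3) and 1 lower (TEAD4), against a background of 29.9%, with 18.1% higher and 11.8% lower. In siHAND2 against siMYCN 1 of 6 was called (TEAD2, higher), against a background of 26.9%, with 11.4% higher and 15.5% lower. Without siCTR replicate 1 or 2, or siHAND2 replicate 1 or 2, 3 of the 6 were called in siHAND2 against siCTR. For siMYCN the count was 1 without siCTR replicate 3 or siMYCN replicate 2, and 4 with precision weights. Ranges of the 3 libraries did not overlap for 3 of 6 genes in siMYCN, where 49.5% of all genes did not overlap, for 5 of 6 in siHAND2 (42.4% of all genes) and for 1 of 6 between the knockdowns (38.7% of all genes). The median difference of the 6 genes was 0.17 in siMYCN and 0.27 in siHAND2, beside 0.06 and 0.04 for all genes tested. CCN1 is counted among the 6, and among the 4 called with precision weights, although it passed the filter only through knockdown libraries. The 2 comparisons share the siCTR libraries. Direction depended on scaling for the genes at large: 68.3% of the calls in siMYCN were higher with CPM as deposited and 51.2% after median-ratio rescaling, and in siHAND2 60.6% and 47.1%.

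The kinases and regulators upstream of YAP and TAZ were described with a list of 32 genes, of which 31 passed the filter. In siMYCN 11 rose, 4 fell and 16 did not pass the threshold (median 0.11). Among all 14495 genes, 24.5% rose and 11.4% fell there (median 0.06). In siHAND2 10 rose, 3 fell and 18 did not pass (median 0.03), beside 18.1% and 11.8% of all genes (median 0.04). The core kinases MST1 and MST2 were not among the called genes: STK4 differed by -0.02 in siMYCN and -0.09 in siHAND2, and STK3 by -0.14 and -0.12. LATS1, the kinase that phosphorylates YAP directly, rose from 46.8 ± 1.39 CPM to 52.5 ± 2.36 CPM in siMYCN (0.16, limma adjusted p = 0.0245) and 54.8 ± 2.87 CPM in siHAND2 (0.22, limma adjusted p = 0.00423). The largest rises in siMYCN were those of the atypical cadherin FAT4 (0.61, limma adjusted p = 3.83e-05), the kinase MAP4K2 (0.45, limma adjusted p = 0.000134) and the kinase TAOK3 (0.34, limma adjusted p = 0.000773). The largest falls there were those of WWC1, the KIBRA scaffold that helps to activate LATS (-0.38, limma adjusted p = 0.00447), FRMD6 (-0.22, limma adjusted p = 0.00157) and the cadherin FAT1 (-0.21, limma adjusted p = 0.0158).

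In siHAND2 the FERM-domain gene FRMD6 rose most, by 0.74 (limma adjusted p = 3.92e-09), from 43.3 CPM in siCTR to 73.1 CPM, while in siMYCN it had fallen to 37.1 CPM. The direct comparison gave 0.96 (limma adjusted p = 1.05e-10). MAP4K4, a kinase that acts on LATS beside MST1 and MST2, rose by 0.30 (limma adjusted p = 5.61e-05) and the cadherin DCHS1 by 0.28 (limma adjusted p = 0.00311). Both were also called higher in siMYCN, MAP4K4 by 0.31 (limma adjusted p = 4.06e-05) and DCHS1 by 0.24 (limma adjusted p = 0.00684). MAP4K2 (0.26, limma adjusted p = 0.00995) and TAOK3 (0.25, limma adjusted p = 0.00846), named above for siMYCN, rose in siHAND2 too. In siHAND2 TNIK fell by 0.51 (limma adjusted p = 0.000103), WWC1 by 0.37 (limma adjusted p = 0.0061) and FAT4 by 0.25 (limma adjusted p = 0.0334). FAT4 thus rose in siMYCN, fell in siHAND2 and differed between the knockdowns by -0.86 (limma adjusted p = 7.73e-07). The FAT4 fall was not called without siCTR replicate 1 (-0.24) or 3 (-0.16) or siHAND2 replicate 1 (-0.23) or 3 (-0.24), and the FAT1 fall in siMYCN was not called without siCTR replicate 1 (-0.19) or 3 (-0.17) or siMYCN replicate 1 (-0.18) or 2 (-0.18). Neither of these falls was called without the intensity trend, and that of FAT4 not without the filter.

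Scaffolds and cofactors that bind YAP, TAZ or TEAD were a list of 16 genes, of which 13 had a row and 12 were tested. In siMYCN 5 rose, 1 fell and 6 did not pass the threshold (median 0.08), where 24.5% of all genes rose and 11.4% fell. In siHAND2 3 rose, 1 fell and 8 did not pass (median 0.11), where 18.1% of all genes rose and 11.8% fell. AMOT, the founding angiomotin and a relative of AMOTL2, rose in siHAND2 by 0.70 (limma adjusted p = 2.42e-05), from 9.78 to 16.5 CPM, and differed by 0.03 in siMYCN (limma adjusted p = 0.809). The direct comparison of the knockdowns gave 0.66 for AMOT (limma adjusted p = 3.94e-05). AMOTL1, the third angiomotin, rose by 0.16 in siMYCN (limma adjusted p = 0.00375) and differed by 0.05 in siHAND2 (limma adjusted p = 0.338). The 14-3-3 proteins hold phosphorylated YAP in the cytoplasm, and their genes YWHAZ (0.26, limma adjusted p = 0.000131) and YWHAB (0.22, limma adjusted p = 0.000306) rose in siMYCN. TJP1, a scaffold of tight junctions, rose by 0.25 in siMYCN (limma adjusted p = 0.000786). BTRC, part of the ubiquitin ligase for YAP, rose by 0.22 in siHAND2 (limma adjusted p = 0.0176) and by 0.18 in siMYCN (limma adjusted p = 0.0409). VGLL4, which competes with YAP for TEAD, fell by 0.15 in siHAND2 (limma adjusted p = 0.0452). RUNX2, the remaining gene counted as a rise in siHAND2, read 0.275, 0.374 and 0.332 CPM under siCTR, 0.403, 0.307 and 0.480 CPM under siMYCN and 1.085, 1.24 and 1.06 CPM under siHAND2. It passed the filter only through the siHAND2 libraries, where it is high, so its values are a description; it lies outside the naming rule and is named to complete the count. The BTRC call in siHAND2 was lost without siCTR replicate 2 (0.19) or 3 (0.21) or siHAND2 replicate 1 (0.20). The VGLL4 call was lost in 6 of the 9 fits without 1 library, with values from -0.20 to -0.10 over the 9: without siCTR replicate 1, 2 or 3, siMYCN replicate 3, or siHAND2 replicate 2 or 3. It was also lost without the filter or the intensity trend. Without siCTR replicate 2 or 3, 2 genes of this list were called in siHAND2.

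Target genes of YAP and TAZ beyond the 4 above were a list of 18 genes from a widely used signature, of which 17 had a row and 11 were tested. They went in both directions. In siMYCN 3 rose, 3 fell and 5 did not pass the threshold (median 0.11), beside 24.5% and 11.4% of all genes. In siHAND2 4 rose, 5 fell and 2 did not pass (median 0.01), beside 18.1% and 11.8% of all genes. IGFBP3, a secreted binding protein of insulin-like growth factors, read 15.01, 12.95 and 17.37 CPM under siCTR, 21.2, 15.7 and 18.95 CPM under siMYCN and 59.9, 62.5 and 46.2 CPM under siHAND2. Only its siHAND2 libraries stood apart, with a rise of 1.83 (standard error 0.12, limma adjusted p = 7.08e-09), while siMYCN differed by 0.28 (limma adjusted p = 0.0716). The summed fibroblast markers given above were also highest in siHAND2, through DCN, PDGFRA and PDGFRB, while THY1 and COL1A1 were lowest there. DOCK5, an activator of the GTPase RAC, read 68.8 to 73.6 CPM under siCTR, 108 to 123 CPM under siMYCN and 87.4 to 97.1 CPM under siHAND2. It rose in both, by 0.68 (limma adjusted p = 1.87e-07) and 0.39 (limma adjusted p = 5.35e-05), with all 3 groups apart.

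RBMS3, an RNA-binding protein, also rose in both knockdowns, by 0.30 (limma adjusted p = 0.000236) in siMYCN and 0.19 (limma adjusted p = 0.00913) in siHAND2. PTPN14, a phosphatase that restrains YAP, fell in both, by 0.38 (limma adjusted p = 0.0257) and 0.44 (limma adjusted p = 0.0145), and FJX1 fell by 0.35 (limma adjusted p = 5.07e-05) and 0.30 (limma adjusted p = 0.00025). ASAP1 moved in opposite directions, falling by 0.17 in siMYCN (limma adjusted p = 0.00789) and rising by 0.20 in siHAND2 (limma adjusted p = 0.00396), with a difference between the knockdowns of 0.37 (limma adjusted p = 1.27e-05). The DNA damage gene GADD45A rose by 0.21 in siMYCN (limma adjusted p = 0.0178) and fell by 0.23 in siHAND2 (limma adjusted p = 0.0127), a difference of -0.45 (limma adjusted p = 6.92e-05). CCDC80 fell by 0.39 in siHAND2 (limma adjusted p = 3.98e-05) and F3, the tissue factor gene, by 0.31 (limma adjusted p = 0.0388). Some of these calls rested on single libraries. F3 was lost whenever 1 siCTR or siHAND2 library was left out (6 of the 9 fits, -0.35 to -0.27 over the 9), without the filter, and with the 2 groups fitted alone. GADD45A in siMYCN was lost after both rescalings (0.16 and 0.17) and without siCTR replicate 1 (0.20) or 3 (0.16) or siMYCN replicate 2 (0.19). PTPN14 in siMYCN was lost without siCTR replicate 2 (-0.37) or 3 (-0.32) or siMYCN replicate 1 (-0.31) or 2 (-0.39) and without the filter, and in siHAND2 without siCTR replicate 3 (-0.37) or siHAND2 replicate 1 (-0.35).

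**Figure D4:**
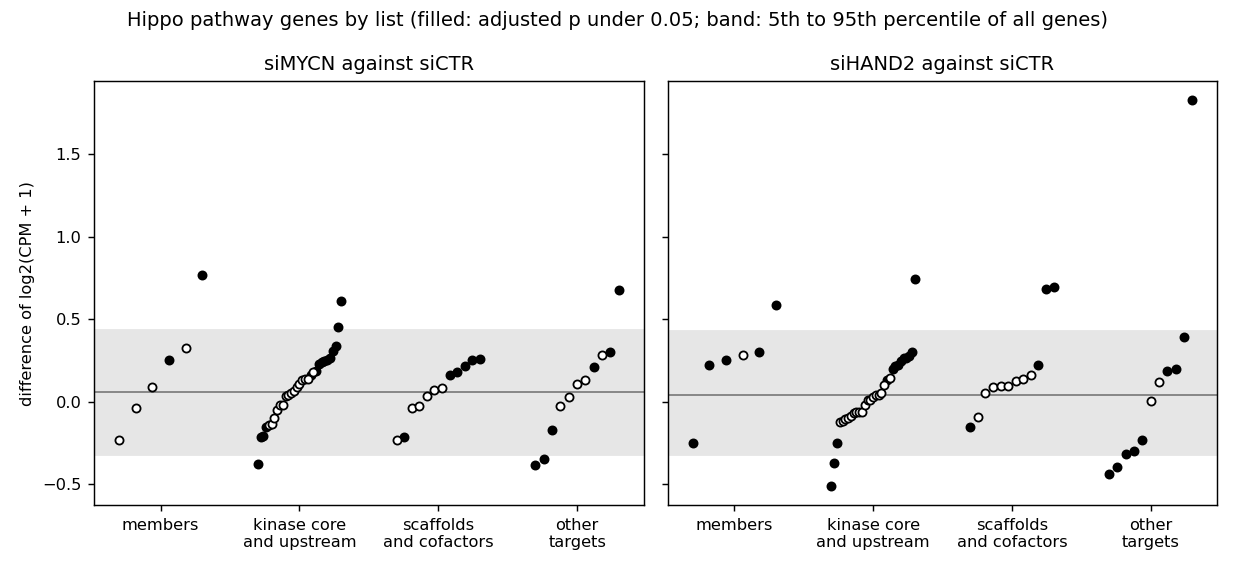
Differences of log2(CPM + 1) against siCTR for each tested gene of the 4 lists; filled dots passed an adjusted p of 0.05, the grey line is the median of all genes and the band their 5th to 95th percentile. In each list dots lie on both sides of 0, and IGFBP3 (1.83) is the highest in siHAND2.

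Of this list, 6 target genes stayed below the filter and were not tested: MYOF, ANKRD1, CRIM1, NT5E, NUAK2 and TGFB2. ANKRD1, a standard YAP target, averaged 0.0477 CPM in siCTR, 0.0250 CPM in siMYCN and 0.0370 CPM in siHAND2, and 1 library of each group was at the table's smallest value. MYOF, a membrane repair protein, read 0.153, 0.150 and 0.143 CPM under siCTR, 0.242, 0.345 and 0.377 CPM under siMYCN and 0.724, 0.677 and 0.567 CPM under siHAND2. Its 3 groups did not overlap, at levels far below 1 CPM. The other CCN genes with a row were also below the filter. CCN3, a neural relative of CCN1, read 0.336, 0.2996 and 0.332 CPM under siCTR, 0.121, 0.115 and 0.206 CPM under siMYCN and 0.0988, 0.0399 and 0.106 CPM under siHAND2. All 6 knockdown libraries lay below siCTR for CCN3, the opposite side to CCN1. MYOF and CCN3 are named because of their values, so these orders are descriptions.

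Among 11201 other genes averaging 5 CPM or more, the profile of CCN1 over the 9 libraries was most like those of AC015871.3 (Pearson r = 0.957), MYT1L (0.954), a neuronal transcription factor, and CPLANE1 (0.949), a ciliary gene. For AMOTL2, added after its values were seen, the 3 most similar were NISCH (0.985), CYTH2 (0.983) and KLHDC8B (0.983). These correlations pool 3 groups of libraries and are descriptions of likeness.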

How the data were processed

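RNA-seq libraries of LAN5 cells (3 per siRNA) were available as 1 table of CPM, which the authors deposited with a constant of 0.0001 in each value. STAR 2.5.1 and Partek, with hg19 and GRCh37, are named per the submitters' processing notes; the counting rule, use of strand, annotation and filter are not given in the sources used here. Gene positions in the table lie on GRCh38 (8208 of 18213 shared symbols, and 5 of the 7 genes, had the start of the RefSeq GRCh38 table), so positions are printed as GRCh38, from 1, with the end 1 base before the deposited stop. Genes overlapping TEAD1 and TEAD2 stayed below 0.2 CPM, and no gene of the table overlaps the other 5.

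Depth was the inverse of the smallest CPM step; 79.2% to 80.8% of values up to 20 steps were whole within 0.02 of a step, under the 95% needed for a count test. Counting error covers reads, not molecules. The 14495 genes reaching 1 CPM in 3 or more libraries were fitted with limma 3.58.1 in R 4.3.3 on log2(CPM + 1), 1 mean per group over all 9 libraries, intensity trend, two-sided, Benjamini-Hochberg adjustment over all genes. A fold on this scale understates changes of low genes. The members, lists and alternatives were chosen with earlier results of these data known. From each list, up to 3 rises and 3 falls per comparison with siCTR were named among called genes averaging 1 CPM or more; LATS1, STK3, STK4, AMOTL1, MYOF, ANKRD1 and CCN3 were added for their role or values, as were second values of genes named once. 1 called gene of the scaffold list is not reported here. On simulated data with 1 fixed spread, the model recovered 78.2% of log2 changes of 0.5 and 100% of changes of 1. Smaller changes were not simulated. Alternatives were pseudocounts 0.1 and 5, no filter or 5 CPM, 2 rescalings, 2 groups alone, no trend, precision weights, the replicate block and each library left out. No 2 libraries of a group agreed within counting noise (chi-square per degree of freedom 2.92 to 8.94).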

Additional observations from a re-analysis of the deposited data

How the results depend on the processing

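Of 69 differences of named genes recomputed under each alternative, 47 kept their direction and their side of the threshold throughout, 8 of the 18 for members among them. Some stated calls were not recomputed, so their stability is not known. These were LATS1 in both knockdowns, BTRC, AMOTL1, MAP4K4 and DCHS1 in siMYCN, and GADD45A, RBMS3, FJX1, MAP4K2, TAOK3 and RUNX2 in siHAND2. The calls of the noradrenergic and fibroblast markers were not recomputed either. The count of all genes called stayed within 1.5 times its value under every alternative, with 4017 to 5845 (siMYCN), 3079 to 4341 (siHAND2) and 2923 to 3992 (siHAND2 against siMYCN) when 1 library was left out. Members called were 4 instead of 2 in siMYCN with precision weights, and 2 instead of 1 in siHAND2 against siMYCN after median-ratio rescaling or quantile normalization. With 1 library left out they were 1 to 3, 3 to 5 and 1 to 2 in the 3 comparisons, and the scaffolds and cofactors called in siHAND2 were 2 to 4. Direction reversed only for differences near 0 and only without 1 library: TEAD2 in siMYCN spanned -0.0874 to 0.0082, and between the knockdowns TEAD3 spanned -0.0001 to 0.1013, TEAD4 -0.0971 to 0.0778 and CCN1 -0.1297 to 0.0658. The cause was not tested. Same-numbered libraries of different groups had correlated deviations (over 0.1 in 6 of 9 pairs, from -0.04 to 0.305), and the best partner bore the same number in 15 of 18 cases, but the labels give no shared batch, so they share only a number. With the replicate block, 5895, 5089 and 4689 genes were called in the 3 comparisons, and 3, 5 and 2 members; the block added TEAD4 in siMYCN (-0.23, limma adjusted p = 0.0229) and TEAD1 between the knockdowns (0.13, limma adjusted p = 0.0179). CCN1 and WWTR1 are limited by depth: a value of 1 CPM stood for 21.1 to 32.7 reads.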
